A study of Mus musculus with 4 samples.

Results

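The insulin receptor to Akt core is the set of 10 genes that carry the insulin signal from the cell surface to Akt: Insr, Irs1, Irs2, Pik3r1, Pik3ca, Pik3cb, Pdpk1, Akt1, Akt2 and Ptpn1. Members were taken by gene name in the scanner files, by a rule that uses no measured value, although the set was proposed with earlier results of these data known. Irs2 had no probe by name, accession or description, so 9 of the 10 genes were measured, out of 27745 gene names on the array. They had 20 of the 41174 probes. RNA came from 3T3-L1 cells, a mouse preadipocyte line that becomes adipocytes after hormonal induction, on day 2 of differentiation. There was 1 Agilent Whole Mouse Genome array per condition: 0.1% DMSO, 100 μg/ml Bilberry extract, 100 nM Delphinidin and 100 nM Cyanidin. All 4 cultures carried the DMSO vehicle and the same initiation media with insulin, dexamethasone and IBMX, so no culture was free of insulin and the insulin response itself was not compared. The question was whether bilberry extract, or the anthocyanidins it contains, altered the transcripts of the insulin pathway during differentiation.

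Insulin binds its receptor, a tyrosine kinase, which phosphorylates the substrates IRS1 and IRS2. The substrates recruit PI3-kinase, made of a regulatory subunit (p85α, from Pik3r1) and a catalytic subunit (p110α or p110β, from Pik3ca or Pik3cb). Its lipid product brings PDK1, the product of Pdpk1, together with Akt, and PDK1 phosphorylates Akt in the activation loop. Akt2 is the isoform best known for insulin-stimulated glucose uptake in fat and muscle, and PTP1B, the product of Ptpn1, removes phosphate from the receptor. Much of this pathway is switched by phosphorylation, which RNA levels do not show.

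With 1 array a condition there was no replicate and no p-value, and precision is limited by that number of arrays. Signals were divided by the 75th percentile of their array, equal to 861 for DMSO, 576 for bilberry, 1009 for delphinidin and 1016 for cyanidin. The errors given are the 95% intervals of the scanner software's own error model, near 0.40 either side of a log2 ratio for bright probes, and they leave out the difference between cultures. The bilberry array stood apart: its 75th percentile was the lowest, yet its spike-in controls were 0.95 (log2) brighter than on the DMSO array, so spike-in scaling lowers every bilberry log2 ratio by 1.53. For delphinidin and cyanidin the spike-in controls moved by -0.03 and -0.00, and spike-in scaling raises every ratio by 0.26 and 0.24, which turns the sign of ratios just below 0. Of 10 adipocyte markers 9 were well above background on all 4 arrays, with Lep on none, and all 8 preadipocyte and fibroblast markers were well above background too. Adipocyte markers summed to 415 times the 75th percentile in the DMSO culture, 296 under bilberry, 457 under delphinidin and 499.7 under cyanidin, against 845, 961, 805 and 741 for the preadipocyte markers. These sums rest on the brightest probes and do not describe the lists gene by gene, for which the median log2 ratio of the adipocyte markers was 0.02 for bilberry, 0.20 for delphinidin and 0.32 for cyanidin. That of the preadipocyte markers was -0.06, -0.06 and -0.23. The cells were labelled as adipocytes, and both marker groups were present. In bulk RNA, fewer cells of a type and less RNA per cell cannot be told apart, and the part of cell mixture in the values below was not tested. Of 8 macrophage and leukocyte markers 5 were well above background on all arrays, with Ptprc, Adgre1 and Itgam on none, and their summed level was between 0.598 and 0.944. Of 5 endothelial markers Vwf alone was well above background, and their sum was between 0.0346 and 0.0595.

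After scaling by the 75th percentile, most of the core kept within 2-fold of DMSO in every treatment, whereas spike-in scaling put 13 of the 18 member probes well above background past 2-fold with bilberry, where 78.1% of all such probes were. With bilberry extract, Akt1, Akt2 and Ptpn1 were 1.36 to 1.54 times the DMSO level on all 6 of their probes, while both probes of Pik3ca were lower, the brighter at 0.415 times. Spike-in scaling puts all of these below DMSO and leaves the order among them. The catalytic subunit gene Pik3cb was higher in all 3 treatments on its single measurable probe, by 1.90 times with bilberry, 2.50 times with delphinidin and 1.38 times with cyanidin, although spike-in scaling put bilberry below DMSO, at -0.60 (log2). Past 2-fold there was 1 of 18 member probes with bilberry, a lower one, where 11.2% of all probes well above background were past it and 6.93% were lower. There was also 1 of 18 with delphinidin, a higher one, where the background was 2.91% in all and 1.08% higher. With cyanidin it was 0 of 18, where the background was 2.83%. A single probe of 18 is too few to set the members apart from the array. All 3 comparisons share the DMSO array, so an error there enters each of them alike.

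**Figure D1:**
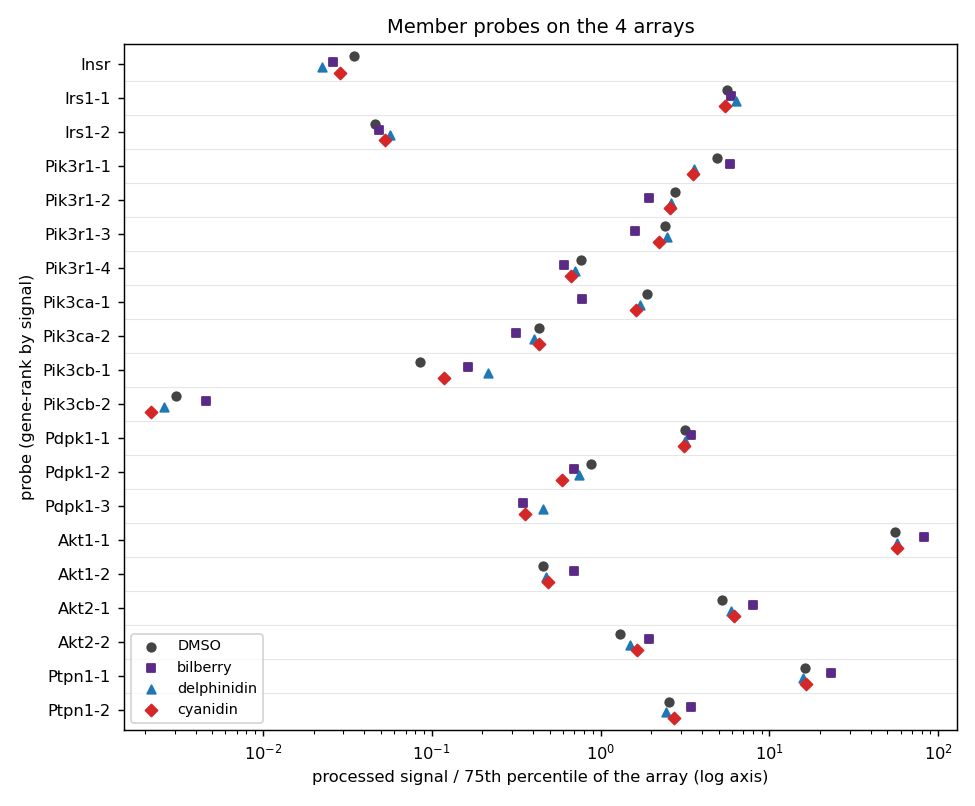
Processed signal of each member probe on the 4 arrays, in units of the array's 75th percentile on a log axis, with probes of a gene numbered by falling signal and 1 point per array. Within each row, the Pik3cb-1 points run from 0.086 with DMSO to 0.215 with delphinidin, and the bilberry point of Pik3ca-1 lies at 0.781 where the other 3 lie between 1.63 and 1.88.

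Insr, the receptor, had 1 probe, at chr8:3159473-3159532 on mm8. Its signal was 29.9 with DMSO and 14.9, 22.7 and 29.3 in the bilberry, delphinidin and cyanidin cultures. It was dim but well above background on all 4 arrays. After scaling the DMSO array was the highest, and the log2 ratios were -0.42 (-1.14 to 0.29) for bilberry, -0.63 (-1.19 to -0.06) for delphinidin and -0.27 (-0.80 to 0.27) for cyanidin. The delphinidin interval alone left out 0, and with spike-in scaling it held 0, at -0.36 (-0.93 to 0.20), while the bilberry interval left it out, at -1.95 (-2.67 to -1.24). The bilberry sign of this dim probe depended on background correction, at 2.14 after normexp and 0.21 after its refit.

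Irs1, the substrate that docks PI3-kinase, had 2 probes on chromosome 1. The brighter, at chr1:82112141-82112200, read 5.57 times the 75th percentile in DMSO, 5.96 in bilberry, 6.38 in delphinidin and 5.50 in cyanidin. These 4 levels lay within the error model of each other, with log2 ratios of 0.10, 0.20 and -0.02. The dimmer probe, 3872 bases farther 5′, read 0.046, 0.049, 0.057 and 0.053, with log2 ratios of 0.07, 0.30 and 0.19. Every Irs1 interval held 0 after scaling by the 75th percentile, and for the brighter probe the intervals ran from -0.30 to 0.50 with bilberry, from -0.20 to 0.59 with delphinidin and from -0.42 to 0.38 with cyanidin. With spike-in scaling the intervals of both probes left out 0 below it for bilberry, at -1.43 and -1.46, and above it for delphinidin, at 0.46 and 0.56.

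The PI3-kinase subunits held both probes past 2-fold. Promoters of the catalytic subunits are printed because these are the genes that passed it, Pik3ca lower with bilberry and Pik3cb higher with delphinidin. Both windows are 300 bases, from 250 before to 50 after the RefSeq start on GRCm38.p6, at chr3:32396815-32397114 on the plus strand for Pik3ca and chr9:99140162-99140461 on the minus strand for Pik3cb. Capitals mark GGGCGG, the GC box bound by Sp1, searched with its reverse CCGCCC on both strands. Pik3ca held 1 match and Pik3cb held 4, and 35.7% of 32851 promoter windows held at least 1.
Pik3ca: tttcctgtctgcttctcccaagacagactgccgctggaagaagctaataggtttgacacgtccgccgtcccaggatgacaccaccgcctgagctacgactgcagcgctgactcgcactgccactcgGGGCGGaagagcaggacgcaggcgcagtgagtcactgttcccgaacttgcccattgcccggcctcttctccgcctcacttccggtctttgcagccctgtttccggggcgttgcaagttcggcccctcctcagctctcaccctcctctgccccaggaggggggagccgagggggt
Pik3cb: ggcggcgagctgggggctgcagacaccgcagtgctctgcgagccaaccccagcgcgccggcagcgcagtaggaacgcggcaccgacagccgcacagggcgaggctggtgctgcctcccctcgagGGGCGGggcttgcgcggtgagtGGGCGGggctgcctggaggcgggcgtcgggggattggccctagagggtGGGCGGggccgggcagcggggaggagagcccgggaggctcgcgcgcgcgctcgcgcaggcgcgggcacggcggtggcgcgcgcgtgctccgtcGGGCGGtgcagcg
Pik3cb was also richer in G and C, at 79.0% against 63.3%, with 44 CpG pairs against 20, where the median of all windows was 52.7% G and C. As many GC boxes or more were found in windows of Pik3r1, Pdpk1 and Akt1, with 4, 5 and 5. A match is a description of the sequence and not a binding site.

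Pik3ca, which encodes the catalytic subunit p110α, had 2 probes 2642 bases apart, of which the brighter was the more 3′. The brighter, at chr3:32655899-32655958, had a signal of 1621 in the DMSO culture, against 449.8 under bilberry, 1723 under delphinidin and 1655 under cyanidin. The bilberry array was low and the other 3 lay close together. The log2 ratio was -1.27 (-1.67 to -0.87) for bilberry, -0.14 for delphinidin and -0.21 for cyanidin, and the intervals of the 2 compounds held 0. The bilberry value kept its sign under all 9 other ways of processing, from -2.80 to -1.10. Among these, the deposited table and keeping marked spots could not change it, as the intensities were the same and the probe was unmarked. The other probe, at chr3:32653257-32653316, had a signal of 373, 181, 409 and 438. Its bilberry log2 ratio was -0.46 (-0.86 to -0.06), in the same direction but 0.81 closer to 0. The probes of Pik3ca thus gave bilberry ratios of 0.415 and 0.726 after scaling by the 75th percentile, and only the first was past 2-fold. The dimmer probe turned to 0.35 (log2) after normexp, with -0.31 after its refit and -1.99 with spike-in scaling.

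Pik3cb, which encodes p110β, was measured by the probe at chr9:98848047-98848106. Its signal was 73.8 in the DMSO culture, 94.0 under bilberry, 217 under delphinidin and 120.1 under cyanidin. All 3 treated arrays were brighter than the DMSO array for this probe before scaling. The 75th percentiles of the delphinidin and cyanidin arrays were also higher than that of DMSO, and bilberry's spike-in controls were 0.95 (log2) brighter. After scaling, the log2 ratios of the probe were 0.93 (0.51 to 1.35), 1.32 (0.91 to 1.74) and 0.46 (0.05 to 0.88). The levels stand in the order delphinidin, bilberry, cyanidin, DMSO, of which the first pair lay within the error model of each other, and the doses of bilberry and the compounds are not matched. Delphinidin kept its direction under all 9 alternatives, from 0.84 to 1.59, but was not past 2-fold at the 0.84 that normexp gave. Cyanidin kept its direction too, from 0.20 after normexp to 0.71 with spike-in scaling. Bilberry went to -0.60 with spike-in scaling. For this probe too, the deposited table and keeping marked spots could not change a ratio. The other Pik3cb probe, 51523 bases farther 5′, stayed near background on all 4 arrays, so no other probe checks this result.

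Pik3r1, which encodes the regulatory subunit p85α and its shorter forms, had 4 probes, and these did not move as one. The brightest, at chr13:102786510-102786569, read 4.90 times the 75th percentile in DMSO, 5.85 in bilberry, 3.60 in delphinidin and 3.52 in cyanidin. Its log2 ratios were 0.26 (-0.14 to 0.66), -0.45 (-0.85 to -0.05) and -0.47 (-0.87 to -0.07). With spike-in scaling the intervals of both compounds held 0, at -0.18 (-0.58 to 0.22) for delphinidin and -0.23 (-0.63 to 0.17) for cyanidin. The other 3 probes were lower with bilberry, at -0.50, -0.59 and -0.32, and spike-in scaling puts all 4 below 0. They were close to DMSO with delphinidin, between -0.12 and 0.05, and with cyanidin, between -0.19 and -0.11. The brightest probe lay between the others in the genome, 4650 bases from the most 3′ one, so distance from the 3′ end does not order the ratios. The spread between the 4 probes was 0.85 for bilberry, 0.49 for delphinidin and 0.37 for cyanidin. Which transcripts each probe reads was not analysed here.

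**Figure D2:**
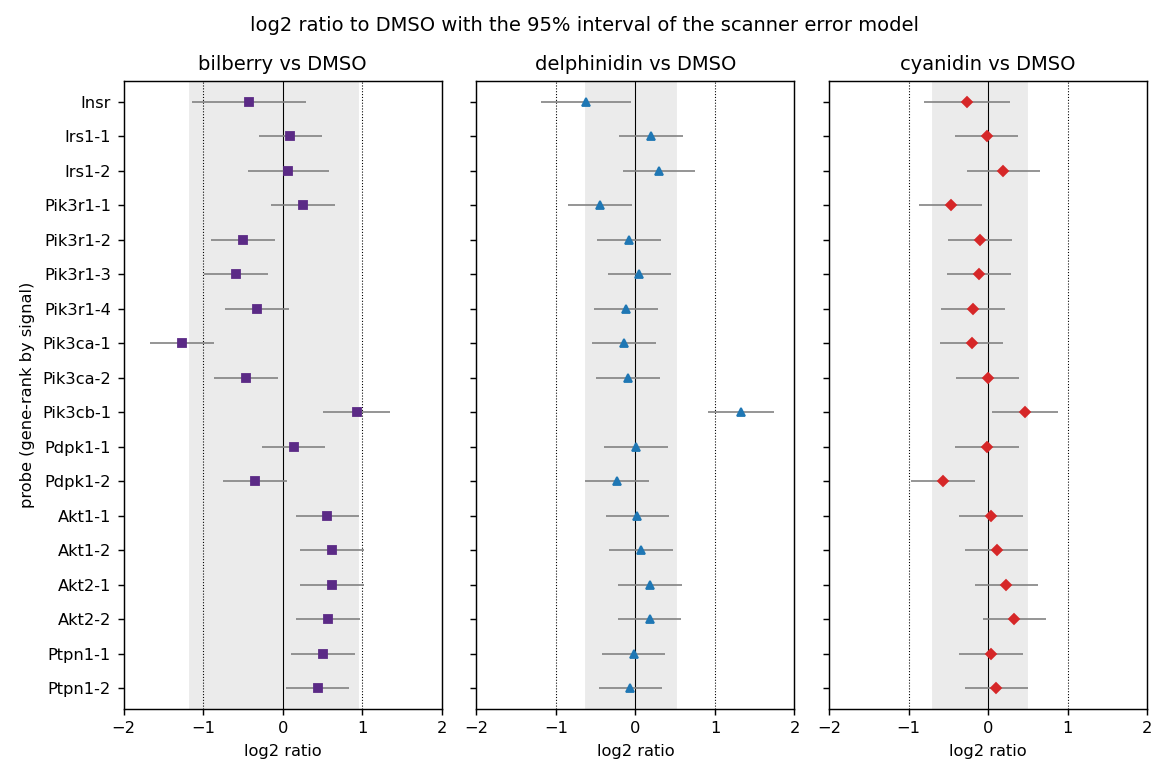
Log2 ratio to DMSO of the 18 member probes well above background, with 1 panel per treatment and bars for the 95% interval of the scanner error model. Dotted lines mark 2-fold and the grey band holds the middle 90% of all probes well above background, and outside the band lie Pik3ca-1 with bilberry and Pik3cb-1 with delphinidin. Spike-in scaling would move every bilberry point by -1.53.

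Pdpk1, the kinase that phosphorylates Akt in its activation loop, had 3 probes. The brightest, at chr17:23807168-23807227, read 3.15 times the 75th percentile in DMSO, 3.46 in bilberry, 3.17 in delphinidin and 3.12 in cyanidin. Its log2 ratios were 0.14, 0.01 and -0.01, and each interval held 0. The probe at chr17:23834471-23834530, 27303 bases farther 5′, read 0.882, 0.692, 0.750 and 0.595. All 3 treatments were lower there, at -0.35 (-0.75 to 0.05), -0.23 (-0.63 to 0.17) and -0.57 (-0.97 to -0.17), and the cyanidin interval alone left out 0. With spike-in scaling cyanidin was -0.32 (-0.72 to 0.08) and bilberry -1.88 (-2.28 to -1.48), so that the bilberry interval left out 0 in its place. The remaining probe, which spans an intron at chr17:23834876-23838511, had no usable DMSO spot because the software had marked its local background. It read 0.347 with bilberry, 0.457 with delphinidin and 0.356 with cyanidin. Keeping the marked spot gave -0.54, -0.14 and -0.50. The 5′ probes therefore gave lower values than the 3′ probe in all 3 comparisons, which share the DMSO array.

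The Akt genes are shown with their upstream promoters because both were above DMSO with bilberry after scaling, and below it after spike-in scaling. The windows lie at chr12:112674835-112675134 on the minus strand for Akt1 and chr7:27591302-27591601 on the plus strand for Akt2, of the same build and length. Capitals mark the forkhead motif TGTTTAC, searched with its reverse GTAAACA, and the GC box as above. Akt1 held 1 forkhead match, as did 3.65% of all windows, and Akt2 held 1 GC box on the other strand.
Akt1: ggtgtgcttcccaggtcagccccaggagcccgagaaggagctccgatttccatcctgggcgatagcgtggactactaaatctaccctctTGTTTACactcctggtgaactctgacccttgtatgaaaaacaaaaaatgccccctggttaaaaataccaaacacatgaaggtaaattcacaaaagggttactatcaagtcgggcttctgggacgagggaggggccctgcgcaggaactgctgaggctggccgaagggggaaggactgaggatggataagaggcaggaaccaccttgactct
Akt2: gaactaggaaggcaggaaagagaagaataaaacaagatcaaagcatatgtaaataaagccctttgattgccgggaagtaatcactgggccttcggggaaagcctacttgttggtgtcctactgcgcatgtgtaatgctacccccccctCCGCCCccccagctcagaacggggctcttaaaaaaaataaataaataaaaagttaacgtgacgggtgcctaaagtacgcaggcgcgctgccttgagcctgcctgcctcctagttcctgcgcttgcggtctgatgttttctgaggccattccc
A second Akt1 start 608 bases downstream held 5 GC boxes and no forkhead match, and the other 3 Akt2 starts held neither motif. The arrays do not show which start was used. In all, 9 of the 10 members had promoter windows, 15 in number, of which 9 held a GC box and 1 the forkhead motif, where 35.7% and 3.65% of all windows did, and several windows belong to the same gene.

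Akt1 was the best measured member, with a probe spotted 10 times on each array. At chr12:113101676-113101735 the mean signal was 48086 in DMSO, 47479 in bilberry, 57337 in delphinidin and 58042 in cyanidin. The SD between spots of an array was 0.048, 0.025, 0.024 and 0.031 (log2, n = 9, 9, 9 and 8 spots). Before scaling the bilberry and DMSO arrays differed by -0.02, within the spread between spots. After scaling bilberry was 0.56 (0.16 to 0.96) above DMSO, and delphinidin and cyanidin were 0.03 and 0.03 above it. The second Akt1 probe spans an intron at chr12:113110106-113119372 and read 0.455, 0.698, 0.478 and 0.489 times the 75th percentile. It gave 0.62, 0.07 and 0.11, within 0.07 of the first probe in each comparison. The bilberry value of Akt1 was -0.97 with spike-in scaling on the first probe, so its sign rests on the choice of scaling. The first normexp fit, before its refit, also took the brighter probes of Akt1 and Ptpn1 to -0.09 and -0.12 and the dimmer Pik3ca probe to 0.35.

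Akt2 had 2 probes on chromosome 7 with the same pattern. The brighter, at chr7:27347600-27347659, read 5.24 times the 75th percentile in DMSO, 8.05 in bilberry, 5.95 in delphinidin and 6.14 in cyanidin. Its log2 ratios were 0.62 (0.22 to 1.02), 0.18 (-0.22 to 0.58) and 0.23 (-0.17 to 0.63). The probe across an intron at chr7:27345714-27345854 gave 0.57, 0.18 and 0.33. Bilberry was the highest array on both probes, by more than the error model against DMSO. With spike-in scaling these bilberry values were -0.91 and -0.96, and both compounds were above DMSO on both probes, by 0.44 to 0.57, with intervals that left out 0.

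Ptpn1, whose phosphatase acts on the insulin receptor, followed the Akt genes. The brighter probe, at chr2:167668001-167668060, read 16.2 times the 75th percentile in DMSO, 23.0 in bilberry, 15.9 in delphinidin and 16.5 in cyanidin. Its log2 ratios were 0.51 (0.11 to 0.91), -0.02 and 0.03. The probe 1999 bases farther 3′, at chr2:167670000-167670059, gave 0.44 (0.04 to 0.84), -0.06 and 0.10. The delphinidin and cyanidin intervals held 0 on both probes. With spike-in scaling the bilberry values were -1.02 and -1.09.

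Over the 18 member probes, the bilberry interval left out 0 on 11, where 48.5% of all probes well above background did so. It lay above 0 on 7 and below on 4, where 28.8% and 19.7% of all such probes did. With spike-in scaling the bilberry interval lay below 0 on all 18, as for 96.4% of all such probes. The delphinidin interval left out 0 on 3, where the background was 18.8%, with 1 above and 2 below against 7.01% and 11.8%. The cyanidin interval left out 0 on 3, where the background was 20.7%, with 1 above and 2 below against 7.19% and 13.5%. With spike-in scaling 5 delphinidin and 3 cyanidin intervals lay above 0, where 24.6% and 26% of all probes did, and 0 lay below, where 4.37% and 5.61% did, so the lower ones rest on the scaling. The median log2 ratio of the 9 measured genes, each by its brightest probe, came to 0.26 for bilberry, 0.01 for delphinidin and -0.01 for cyanidin. Over all genes well above background it was 0.16, -0.03 and -0.01. The bilberry median of the members was not stable, at 0.08 after quantile normalization, 0.08 with the mean over all probes of a gene, -0.12 after normexp and -1.27 after spike-in scaling. The members spread over 2.20 with bilberry, with an SD of 0.66 between genes against 0.67 over all genes. With delphinidin the SD was 0.55 against 0.40, of which Pik3cb was the farthest member, and with cyanidin 0.27 against 0.39.

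A difference between 2 members within the same arrays does not depend on the factor by which an array is scaled. The genes set against each other here were picked after their bilberry values were seen, so the gap is a description. With bilberry, the Akt1 probe spotted 10 times stood 1.83 above the brighter Pik3ca probe and 1.02 above the other. All 6 probes of Akt1, Akt2 and Ptpn1, at 0.44 to 0.62, stood above both probes of Pik3ca by at least 0.90. That gap was 0.61 after quantile normalization, 0.70 after the refitted normexp and 1.05 after local centring. It closed to -0.47 in the first normexp fit, in which the fitted background mean of the bilberry array was -345, against -5.735 without the single spot of the highest local background. The brighter Pik3ca probe stayed 1.01 below Akt1 even there.

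**Figure D3:**
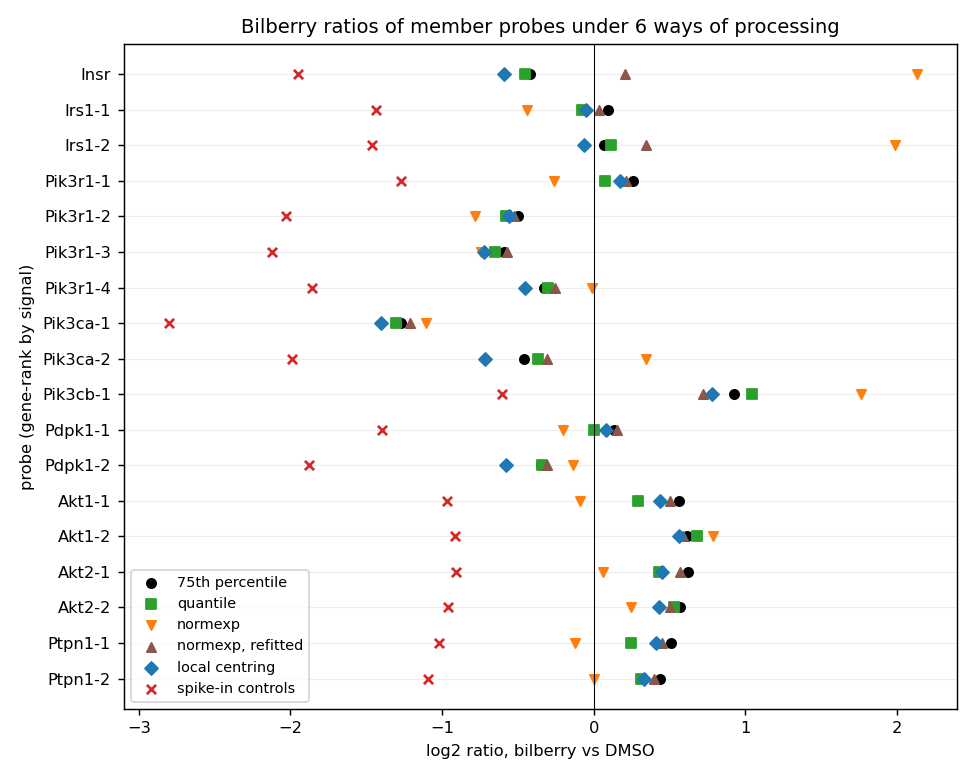
Log2 ratio of bilberry to DMSO for the 18 member probes, 1 row per probe and 1 symbol for each of 6 ways of processing the same arrays. Spike-in scaling places all 18 below 0, and Pik3ca-1 is below 0 under each of the 6.

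Delphinidin and cyanidin were given at the same dose, 100 nM, and differ by a hydroxyl group on the B ring that delphinidin has and cyanidin lacks. They were compared on 19 probes, without p-values. The difference, delphinidin minus cyanidin, left out 0 on 1 probe, where the background was 8.19% of all probes. This was Pik3cb, at 0.86 (0.46 to 1.27), with delphinidin the higher. The other 18 intervals held 0, and they do not show that the compounds act alike. Insr had the widest of these intervals, at -0.36 (-0.90 to 0.19), and the 5′ probes of Pdpk1 gave 0.33 (-0.07 to 0.73) and 0.36 (-0.04 to 0.76). For the repeated Akt1 probe the difference was -0.01 (-0.41 to 0.39), for the brighter Irs1 probe 0.21 (-0.18 to 0.61) and for the brighter Pik3ca probe 0.07 (-0.33 to 0.47). The median absolute difference of the 9 genes, each by its brightest probe, was 0.06, and 0.11 with the mean over all probes of a gene. Over 21912 probes well above background, not limited to the brightest probe of each gene, it was 0.13, so these medians are not matched. Bilberry is an extract at 100 μg/ml and has no dose matched to either compound.

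**Figure D4:**
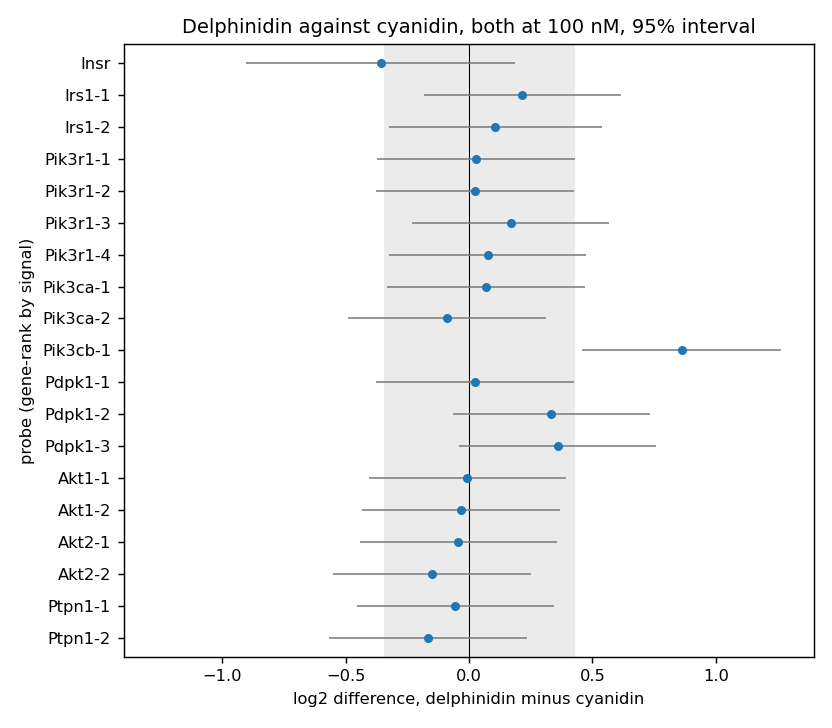
Log2 difference between the delphinidin and cyanidin arrays for 19 member probes, with bars for the 95% interval of the error model and a grey band for the middle 90% of all probes well above background (-0.34 to 0.42). The Pik3cb-1 bar alone does not reach 0.

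Probes of 1 gene give a check on the values that the error model does not. Over the 7 members with 2 or more usable probes, 16 in all, the pooled SD between probes of a gene was 0.31 for bilberry, 0.14 for delphinidin and 0.18 for cyanidin. Over all 5050 such genes it was 0.43, 0.22 and 0.27. Akt1, Akt2, Ptpn1 and Irs1 agreed between probes within 0.21 in every comparison. Pik3ca with bilberry, and Pik3r1 and Pdpk1 in all 3 comparisons, differed by more, from 0.24 to 0.85. Insr and Pik3cb rest on 1 probe each.

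**Figure D5:**
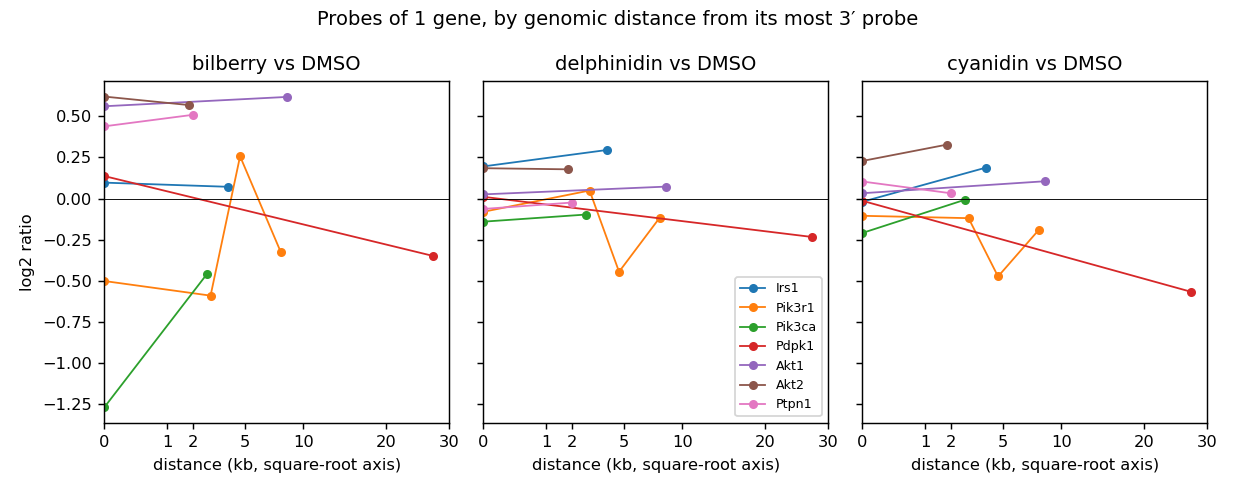
Log2 ratio to DMSO of probes of the same gene, joined by lines, against genomic distance from the most 3′ probe of that gene in kb on a square-root axis, with 1 panel per treatment. Lines of Akt1, Akt2 and Ptpn1 are nearly flat, those of Pdpk1 slope down toward the 5′ probe, and Pik3r1 has 1 probe that departs from its neighbours in each panel. With bilberry the Pik3ca line goes the other way, from -1.27 at the 3′ probe to -0.46 at the 5′ probe. Spike-in scaling would shift the whole bilberry panel by -1.53.

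After scaling by the 75th percentile, Pik3cb varied most over the 4 arrays among members represented by a probe well above background. Its range was 1.32, close to the 1.27 of Pik3ca. With spike-in scaling the log2 ratios of Pik3ca ran from -2.80 to 0.12 and those of Pik3cb from -0.60 to 1.59. Pik3ca also varied more after local centring and the refitted normexp, and Insr varied most in the first normexp fit. Of 10354 other genes with a RefSeq accession, the 3 nearest to Pik3cb in their log2 ratios were 6230410P16Rik, Cd274 and Pole. Distance was Euclidean, over the 3 comparisons. Cd274, which encodes the immune checkpoint ligand PD-L1, had 0.86, 1.33 and 0.69. Pole, the catalytic subunit of DNA polymerase epsilon, had 1.03, 1.14 and 0.59. The likeness describes 4 arrays only.

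The wider pathway was read from 86 further genes, of which 81 had a value and 71 were well above background with DMSO and bilberry. With bilberry 3 were more than 2-fold higher and 1 more than 2-fold lower, that is 4 of 71 where 11.3% of all genes were past 2-fold, 4.68% higher and 6.65% lower. The count was 17 after normexp and 59 after spike-in scaling, where 31.5% and 76.9% of all genes were past 2-fold. With delphinidin 0 of 72 were, where 3.23% of all genes were, and with cyanidin 0 of 72, where 3.04% were. The medians were 0.17, -0.03 and 0.02, beside 0.16, -0.03 and -0.01 over all genes. Slc2a4 encodes GLUT4, the transporter that takes up glucose in response to insulin, and had a signal of 371 in DMSO, 85.5 in bilberry, 284 in delphinidin and 361 in cyanidin. Its log2 ratios were -1.54, -0.61 and -0.28, and the bilberry one was 0.08 in the first normexp fit and -1.03 in the refit.

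The genes above 2-fold with bilberry were Trib3, Irs4 and Foxo3, and all 3 fall below 0 with spike-in scaling. Trib3, a pseudokinase that binds Akt, had a signal of 668, 981, 1202 and 1169, and log2 ratios of 1.13, 0.62 and 0.57. Its second probe gave 1.80, 0.48 and 0.45. Irs4, another insulin receptor substrate, had a signal of 159, 254, 175 and 226, with 1.26 for bilberry. Foxo3, a forkhead factor that Akt holds out of the nucleus, read 34.5, 57.0, 40.2 and 43.8, with 1.30 for bilberry on this dim probe and 0.26 on its other. Trib3 was no longer past 2-fold at 0.99 after local centring and 0.81 after normexp, nor Foxo3 at 0.83 after the refit. Foxo1, the related factor, was at 0.47, -0.28 and -0.11. Igf1r, the receptor closest to Insr, was at 0.07, 0.03 and 0.06 on the brightest of 4 probes. Its other 3 probes ran from -0.21 to 0.41 with bilberry and from -0.32 to 0.05 with delphinidin, so they did not share a direction there. With cyanidin they ran from -0.49 to -0.13, all below 0 and unlike the brightest probe. By list, the median with bilberry was 0.17 for receptors, 0.28 for adaptors, 0.14 for the other PI3-kinase subunits, 0.34 for phosphatases and inhibitors, 0.17 for mTOR complexes and 0.00 for Akt and its targets.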

How the data were processed

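Total RNA was labeled with Cy3 and hybridized to 4 Agilent Whole Mouse Genome arrays. The authors deposited the output of Feature Extraction (9.5.1.1 per the file headers), whose processed signal is an intensity with local background subtracted and spatial trends removed. A deposited table of the series holds the same intensity. Signals were divided by the array's 75th percentile (43379 non-control spots) and taken to log2. Spots marked for uneven or outlying signal or background were left out, 701 to 875 per array. A gene's representative was its probe with the highest mean signal. A probe past 2-fold had a ratio over 2 or under 1/2. No test was possible with 1 array per condition. Members and lists were chosen with earlier results of these data known. Pathway genes are named where past 2-fold, or as references fixed by name (Igf1r, Foxo1 and 1 further gene that is not reported here). Beside them stand the 3 genes nearest Pik3cb in pattern and a few cell type markers. Coordinates are mm8, as in the files, and a probe of 60 bases that spans more crosses an intron. Exon and UTR annotation of mm8 was not used here. Names and promoters came from RefSeq tables of GRCm38.p6. The calculations were tested on simulated data with planted changes well past 2-fold and little noise, which does not cover the smaller ratios given here. Alternatives were quantile normalization, normexp (offset 50) with and without marked backgrounds, spike-in, median and control-inclusive scaling, local centring, marked spots kept, the deposited table, thresholds of 1.5-fold and 3-fold, and no detection filter. Python 3.11.15, R 4.3.3 and limma 3.58.1 were used.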

Additional observations from a re-analysis of the deposited data

How the results depend on the processing

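Of the 19 member probes with a ratio, those past 2-fold with bilberry numbered 2 after quantile normalization, 5 after normexp (1 of them the Pik3cb probe near background), 13 after spike-in scaling, 5 at 1.5-fold and 0 at 3-fold, where 15%, 64.4%, 60.5%, 30.4% and 5.39% of all probes were. Pathway genes numbered 7, 17, 59, 15 and 0, where 11.5%, 31.5%, 76.9%, 33.5% and 3.04% of all genes were. With delphinidin, member probes numbered 0 after normexp, 0 after its refit, 2 at 1.5-fold and 0 at 3-fold, where 1.03%, 1.03%, 15.5% and 2.92% of all probes were. Pathway genes numbered 5 at 1.5-fold and 1 with no detection filter, where 11.7% and 7.55% of all genes were, and with cyanidin 2 and 1, where 11.5% and 8.08% were. Spike-in scaling took the members' median to -1.27 with bilberry and 0.27 with delphinidin. The cause was not tested. In the normexp fit for bilberry the background mean was -345, and it was -5.65 in the refit without 723 marked local backgrounds and -5.735 without only the spot with a local background of 11380, a fit chosen after seeing the data. Of 116 summary values under alternatives, 20 moved and 96 did not, where a count had to stay within 1.5 times and a median within the SD between probes of a gene (0.43 with bilberry, 0.22 with delphinidin, 0.27 with cyanidin). That allowance lets medians near 0 change sign, as the bilberry median did at -0.12 after normexp, and lets the cyanidin median reach 0.23 with spike-in scaling. The median difference between the compounds, 0.06, had an allowance of 0.19. Values from the deposited table could not move, because it holds the same intensity, so the 96 overstate stability. Of 57 single-probe comparisons, 32 changed sign under at least 1 alternative. These were 14 of 19 with bilberry, 10 of them over 0.4 in size, and 9 of 19 with each compound, the largest at 0.25. No paired analysis was possible because each condition has 1 array and the labels give no replicate numbers. Low signals such as those of Insr, Irs1's dimmer probe and Pik3cb limit what the arrays resolve. The intervals around spike-in scaled ratios were likewise computed after seeing the data.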
